A study of Mus musculus with 10 samples.

Results

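The genes described here are 9 that mouse neutrophils carry late in their maturation or use to leave the bone marrow, namely Retnlg, Mmp8, Cxcr2, Cxcr4, Csf3r, Il1b, Fpr1, Fpr2 and Ly6g. They were taken by symbol from 35705 genes, after the TPM values of all transcripts of a gene had been summed, and 9 of the 9 were found. TPM is a length-corrected abundance, scaled so that the values of each library add up to the same sum. Medial knee cartilage caps of 10 mice gave 1 library each, labelled WT_1 to WT_5 (wild-type control, no treatment) and KO_1 to KO_5 (Mir324-null, no treatment). Mir324 encodes a microRNA hairpin, and the study's title places it in the differentiation of bone-forming osteoblasts and bone-resorbing osteoclasts; the labels name the tissue articular cartilage and the cell type chondrocyte. Strain, age, sex, litter and the construction of the null allele were not given in the sources used here, and the stated tissue processing was the same for all 10. Each library is a separate mouse, so p-values measure the spread between mice.

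Neutrophils are short-lived white cells made in the marrow. Their precursors fill primary granules with enzymes such as elastase, then secondary granules with lactoferrin and related proteins, and only late in maturation make gelatinase granules and the receptors that let them find a wound. CXCR4, held by the stromal chemokine CXCL12, keeps neutrophils in the marrow, while CXCR2 answers chemokines that draw them into blood; G-CSF, through its receptor CSF3R, shifts this balance towards release. A bulk library holds RNA of all cells dissected, so that fewer cells of a type and less RNA per cell cannot be told apart.

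The labelled tissue was checked against markers first. The cartilage genes Prg4, Acan and Col2a1 were present in all 10 libraries, and 7 of 9 chondrocyte markers reached a mean of 1 TPM, while Matn3 and Col9a1 stayed below it. Summed over the list, chondrocyte markers held 1865 to 6054 TPM in WT and 1608 to 2855 TPM in null libraries. The 9 genes of the secondary granule list held far more, 56485 to 114036 TPM in WT and 56341 to 116586 TPM in null libraries. This list is not of granule proteins alone, since it also holds S100a8, S100a9, Cybb and Ltb4r1. S100a8 and S100a9 by themselves took 4.09% to 8.48% of the TPM in WT and 4.10% to 8.17% in null libraries. Transcripts of the list were thus present in every library. Haemoglobin genes took 11.2% to 19.7% of the TPM in WT and 15.8% to 26.1% in null libraries. WT_1 stood apart on the first principal component, at -54.8, against -12.1 to 30.2 for the other 9 libraries. Read depth is unknown, because TPM values carry no counts.

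The 2 mature strands of Mir324 are shown because their seeds, bases 2 to 8 in capitals, define the sites by which they could pair with a messenger RNA; both are RefSeq sequences on the plus strand of chromosome 11 in GRCm38.p6, at chr11:70012060-70012082 and chr11:70012095-70012114.
mmu-miR-324-5p: cGCAUCCCcuagggcauuggugu
mmu-miR-324-3p: cCACUGCCccaggugcugcu
The complement of the first seed, GGGATGC, was found in 9.38% of the longest annotated 3′ UTRs of 12640 genes tested, and that of the second, GGCAGTG, in 17.3%. In the 9 genes described here, 0 of 9 held either site. Their 3′ UTRs were of 152 bases in Retnlg, 160 in Fpr1, 387 in Ly6g, 459 in Il1b, 602 in Csf3r, 644 in Cxcr4, 649 in Fpr2, 947 in Mmp8 and 1818 in Cxcr2. The search says only that these letters are not in those stretches.

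The 9 genes spanned a wide range of levels. Retnlg, which encodes a small secreted protein of the resistin family, averaged 1759 TPM over the 10 mice and ranked 56 of all genes. It was followed by the collagenase gene Mmp8 at 258.8 TPM, Ly6g at 177 TPM, Cxcr4 at 159 TPM, Fpr2 at 136 TPM, Csf3r at 126 TPM, Cxcr2 at 71.4 TPM, Fpr1 at 44.7 TPM and Il1b at 33.4 TPM. Since TPM allows for length, these levels can be compared between genes. Retnlg was above Mmp8 in 10 of 10 libraries, by 6.89-fold on average. Csf3r was above Cxcr2 (1.77-fold) and Cxcr2 above Fpr1 (1.604-fold) in 10 of 10 libraries. The other neighbours in this order changed places between mice: Mmp8 was above Ly6g in 8, Ly6g above Cxcr4 in 4, Cxcr4 above Fpr2 in 9, Fpr2 above Csf3r in 7 and Fpr1 above Il1b in 8 of 10 libraries.

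**Figure D1:**
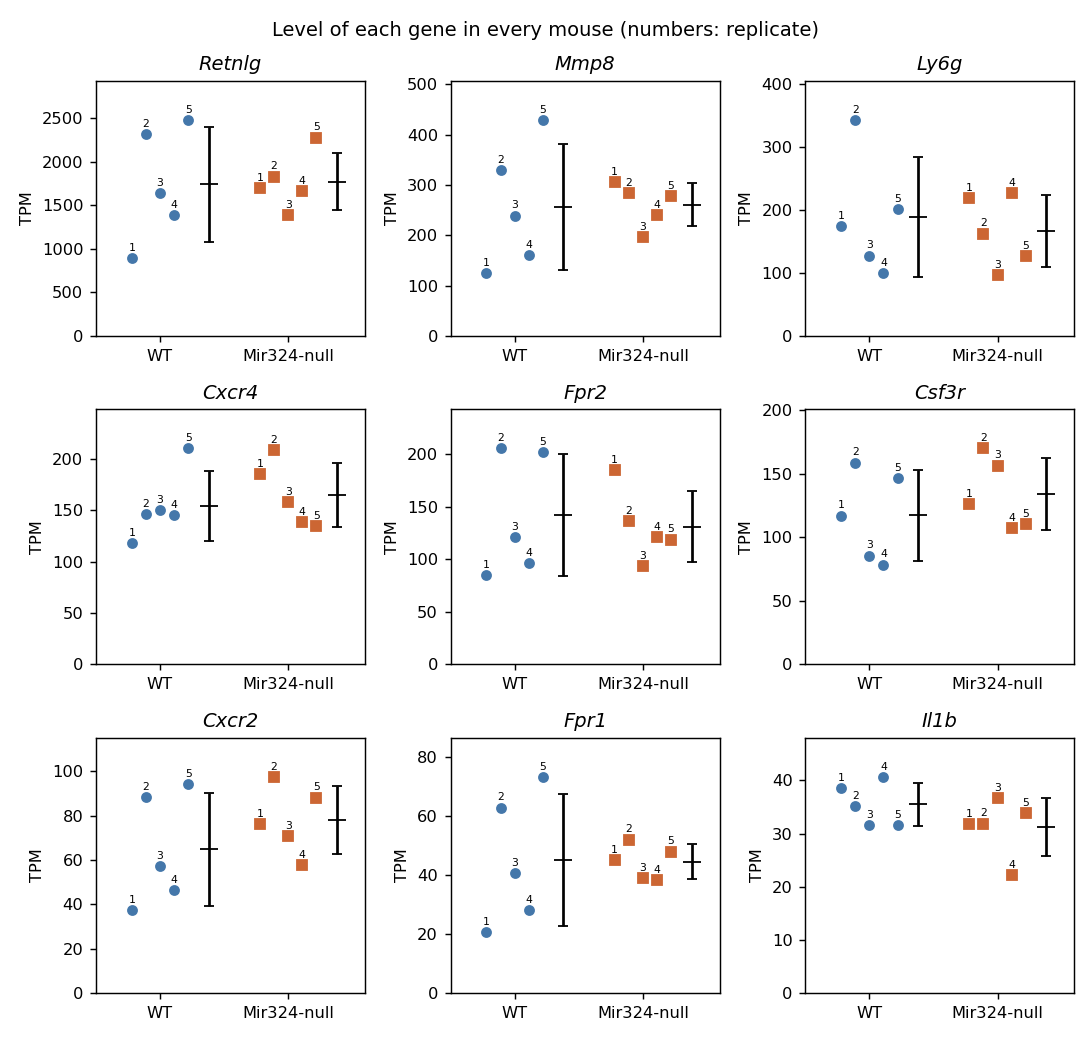
TPM (linear axis from 0) of the 9 genes, one panel each, in 5 WT mice (circles) and 5 Mir324-null mice (squares); digits give the replicate, and bars the mean ± SD of 5. In Retnlg, Mmp8, Cxcr2 and Fpr1 the null mice lie inside the range of the WT mice or just above it (Cxcr2), and WT_1 is the lowest mouse.

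Granule and surface proteins of the mature cell come first. Retnlg (ENSMUSG00000022651, chromosome 16, 48872621 to 48874496, plus strand) was at 891.6, 2316, 1639, 1391 and 2483 TPM in WT_1 to WT_5. In KO_1 to KO_5 it was at 1703, 1832, 1389.8, 1663 and 2280.4 TPM. All null values lay between the lowest and the highest wild-type mouse. The groups averaged 1744 ± 659 and 1774 ± 326 TPM (SD, n = 5 each), a log2 change of 0.098 (SE 0.25, 95% interval -0.45 to 0.64, limma adjusted p = 0.937).

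Mmp8 (ENSMUSG00000005800, chromosome 9, 7558456 to 7568485, plus strand) encodes collagenase-2, a neutrophil granule enzyme that cuts fibrillar collagen. It was at 125, 329, 239, 160.5 and 429 TPM in WT_1 to WT_5 and at 305, 284, 197, 240.2 and 279 TPM in KO_1 to KO_5. WT_5 was highest and WT_1 lowest of all 10 mice, 3.44-fold apart, whereas the null mice spanned 1.55-fold. The means were 257 ± 124 and 261 ± 42.7 TPM (SD, n = 5), a log2 change of 0.15 (SE 0.29, 95% interval -0.48 to 0.79, limma adjusted p = 0.915).

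Ly6g (ENSMUSG00000022582, chromosome 15, 75155240 to 75159126, plus strand) encodes a membrane-anchored surface protein used to recognise mouse neutrophils. It was at 174, 343, 127, 99.2 and 201 TPM in WT_1 to WT_5 and at 218, 162, 96.3, 227 and 126 TPM in KO_1 to KO_5. Here WT_2 was highest, KO_3 lowest and WT_1 in the middle, an order unlike that of Retnlg or Mmp8. The log2 change was -0.13 (SE 0.32, 95% interval -0.83 to 0.58, limma adjusted p = 0.939). One of its 2 transcripts in the table was listed at 0 in all 10 libraries, and because Ly6c1, Ly6c2 and Ly6i are close relatives, the assignment of reads to Ly6g is uncertain.

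The chemokine receptors of egress and retention follow. Cxcr2 (ENSMUSG00000026180, chromosome 1, 74153989 to 74161246, plus strand) was at 37.4, 88.5, 57.3, 46.4 and 94.3 TPM in WT_1 to WT_5 and at 76.3, 97.5, 70.7, 57.7 and 88.2 TPM in KO_1 to KO_5. The wild-type mean was passed by 4 of 5 null mice, but WT_2 and WT_5 were above 4 of the null mice. The means were 64.8 ± 25.4 and 78.1 ± 15.4 TPM (SD, n = 5), and the log2 change of 0.33 was the largest of the 9 in size (SE 0.25, 95% interval -0.21 to 0.87, limma adjusted p = 0.668).

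Cxcr4 (ENSMUSG00000045382, chromosome 1, 128588199 to 128592293, minus strand) was at 118, 146, 149.9, 145 and 209.9 TPM in WT_1 to WT_5 and at 185, 208, 157, 138 and 134 TPM in KO_1 to KO_5. The 2 highest mice, WT_5 and KO_2, came from different genotypes. The log2 change was 0.10 (SE 0.16, 95% interval -0.25 to 0.45, limma adjusted p = 0.883). Cxcr4 is also carried by B cell precursors and other marrow cells. The 9 B lineage markers summed to 391 to 495 TPM in WT and 215 to 448 TPM in null libraries, and their part in the Cxcr4 level was not tested.

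Csf3r (ENSMUSG00000028859, chromosome 4, 126024550 to 126044440, plus strand), the receptor for G-CSF, was at 117, 159, 85.7, 78.7 and 147 TPM in WT_1 to WT_5 and at 126, 170.0, 156, 107 and 110.5 TPM in KO_1 to KO_5. WT_3 and WT_4 lay below all 5 null mice and WT_1, WT_2 and WT_5 among them. The log2 change was 0.22 (SE 0.21, 95% interval -0.23 to 0.68, limma adjusted p = 0.761). Of the Csf3r signal, 17.98% and 12.1% came from 2 transcripts annotated as non-coding, and with protein-coding transcripts alone the change was 0.15.

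The formyl peptide receptors detect peptides shed by bacteria and damaged mitochondria. Fpr1 (ENSMUSG00000045551, chromosome 17, 17876471 to 17883940, minus strand) was at 20.5, 62.7, 40.7, 28.1 and 73.1 TPM in WT_1 to WT_5 and at 45.1, 51.9, 38.9, 38.3 and 47.8 TPM in KO_1 to KO_5. The 5 null mice lay within 1.36-fold of each other and the 5 wild-type mice within 3.57-fold. The log2 change was 0.12 (SE 0.29, 95% interval -0.52 to 0.76, limma adjusted p = 0.934).

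Fpr2 (ENSMUSG00000052270, chromosome 17, 17887824 to 17893952, plus strand) starts 3884 bases from Fpr1 and is transcribed away from it. It was at 85.0, 206, 121, 96.6 and 202 TPM in WT_1 to WT_5 and at 185, 136, 93.6, 121 and 119 TPM in KO_1 to KO_5. WT_2, WT_5 and KO_1 stood above the other 7 mice. The log2 change was -0.056 (SE 0.26, 95% interval -0.63 to 0.52, limma adjusted p = 0.969). The related genes Fpr-rs3, Fpr-rs4, Fpr-rs6 and Fpr-rs7 were listed at 0 in all 10 libraries.

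Il1b (ENSMUSG00000027398, chromosome 2, 129364570 to 129371139, minus strand), which encodes the cytokine interleukin-1 beta, was at 38.6, 35.1, 31.6, 40.7 and 31.6 TPM in WT_1 to WT_5 and at 31.8, 31.8, 36.7, 22.2 and 33.8 TPM in KO_1 to KO_5. The wild-type mice that were lowest in Retnlg and Mmp8, WT_1 and WT_4, were the highest of all 10 in Il1b. It lay under the mean of WT in 4 of 5 null mice, with a log2 change of -0.19 (SE 0.13, 95% interval -0.49 to 0.10, limma adjusted p = 0.641). With protein-coding transcripts alone the change was -0.31, which did not pass either.

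The genotype difference passed no test in any of the 9 genes. In limma with Benjamini-Hochberg adjustment, 0 of 9 passed an adjusted p of 0.05, as did 0% of the 13841 genes tested. At an unadjusted limma p under 0.05 there were also 0 of 9, where 11.6% of all genes tested stood, and the exact permutation test over mice gave 0 of 9 as well. Null and wild-type values were free of overlap in 0 of 9, against 1.94% of all genes. Il1b had the smallest unadjusted p of the 9, both by limma (0.182) and by exact permutation (0.2302); the design allows an exact p as small as 0.00794. Estimates were above 0 in 6 of 9 genes, against 40% of all genes, with a median of 0.10 against -0.045 over all genes; after rescaling without haemoglobin genes Fpr2 was at 0.034 and 7 of 9 were above 0.

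For 5 of the 9 genes the direction rested on single mice. Without WT_1 the estimates were -0.12 for Retnlg, -0.073 for Mmp8 and -0.12 for Fpr1, and 3 of 9 were above 0. Without WT_2, Fpr2 was at 0.10 and Ly6g at 0.12, so that 8 of 9 were above 0. Fpr1 was at -0.0075 without WT_4. Fpr2 was at 0.094 without WT_5 and at 0.055 without KO_3, and Ly6g at 0.051 without KO_3. Cxcr2, Cxcr4 and Csf3r stayed above 0 with any mouse left out, at no less than 0.16, 0.014 and 0.091, and Il1b stayed below it, at no more than -0.077. The limma intervals reach beyond 0.5 on the log2 scale in at least 1 direction for 7 of the 9 genes, all but Cxcr4 and Il1b, so changes of that size lie within the error of these mice.

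**Figure D2:**
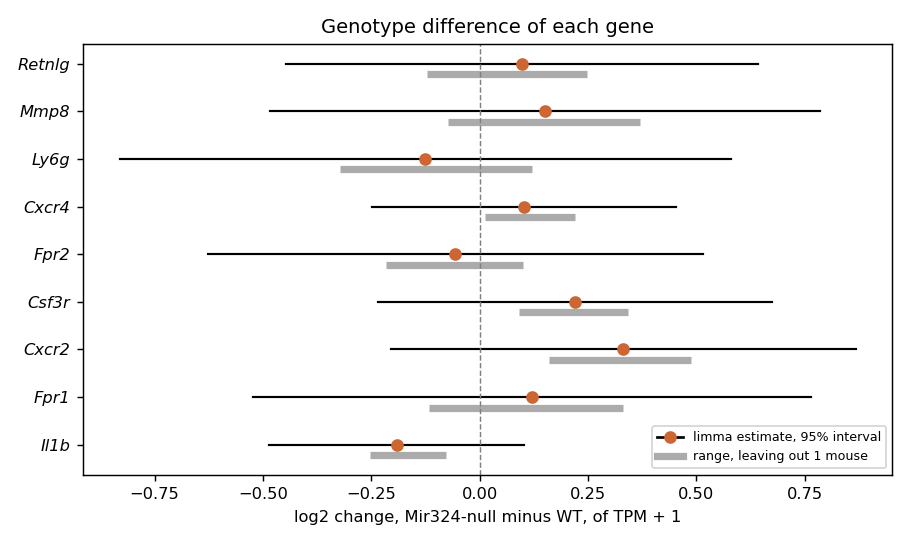
Log2 change of TPM + 1, Mir324-null minus WT (horizontal axis), for the 9 genes: points are limma estimates over 5 and 5 mice, thin lines their 95% intervals, and grey bars the range of estimates when 1 mouse is left out. All 9 intervals include 0, and the grey bars of Retnlg, Mmp8, Ly6g, Fpr2 and Fpr1 cross it.

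The wild-type mice stood in much the same order in 5 of the genes, and the null mice did not. The highest null mouse was KO_5 in Retnlg, KO_1 in Mmp8 and Fpr2, and KO_2 in Cxcr2 and Fpr1. Retnlg, Mmp8, Fpr1, Cxcr2 and Fpr2 were low in WT_1 and WT_4 and high in WT_2 and WT_5 among the wild-type mice, with the null mice mostly between. WT_1 was the lowest of its genotype in 6 of the 9 genes, and WT_5 the highest in 5. Over the 10 mice, Mmp8 and Fpr1 were related with a Pearson r of 0.97 on log2(TPM + 1) (permutation p = 1e-05, the smallest the permutations can give, adjusted 0.00036) and a Spearman rho of 0.93 (permutation p = 0.00041, adjusted 0.0030). Without the 2 mice farthest from the median of Mmp8, WT_1 and WT_5, r was 0.92; it was 0.95 without WT_1 alone and 0.97 on deviations from the genotype means. The adjacent genes Fpr1 and Fpr2 had an r of 0.85 (permutation p = 0.00119, adjusted 0.0054) and a rho of 0.82 (permutation p = 0.00585, adjusted 0.023), and r was 0.77 without WT_1 and WT_5, 0.83 without WT_1 alone and 0.87 on deviations from the genotype means. Of the 36 pairs of the 9 genes, 9 had a permutation p for r under 0.05 after adjustment over the 36. These were all among Retnlg, Mmp8, Fpr1, Cxcr2 and Fpr2, and in each r stayed at 0.65 or above without the 2 farthest mice. Of the pairs among these genes only Cxcr2 with Fpr2 did not pass (r 0.72, permutation p = 0.0202, adjusted 0.0662), and its r was 0.50 without WT_1 and WT_4. The share of all gene pairs with such an r was not computed, and genes outside the 9 reached it too. For Fpr2, the r of 0.90 with Mmp8 ranked 31 of 13840 genes. The values of 1 library share a denominator and each mouse's mix of cells, and groups of 5 mice are too few for an r within a genotype. The median SD of the 9 genes was 0.59 in WT and 0.27 in null mice. An r over all mice, or on deviations from the genotype means, therefore rests more on WT and does not show a relation within null mice.

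The pairs that involve the other 4 genes did not pass adjustment. Cxcr2 and Cxcr4 had an r of 0.69 (permutation p = 0.0286, adjusted 0.0755) and a rho of 0.65 (permutation p = 0.0495, adjusted 0.137), and r was 0.53 without WT_1 and WT_4. Csf3r was nearest to Cxcr2, with an r of 0.67 (permutation p = 0.0376, adjusted 0.0902) and a rho of 0.75 (permutation p = 0.0176, adjusted 0.0633), and r was 0.73 without WT_1 and WT_4 and 0.83 without WT_1 alone. Its r with the other 4 genes of the block ran from 0.32 with Retnlg to 0.55 with Fpr1, and 0 of these passed adjustment. For Il1b, r lay between -0.42 and -0.031 over its 8 pairs, 0 of which passed adjustment. Ly6g was nearest to Fpr2, with an r of 0.73 (permutation p = 0.0165, adjusted 0.0593) and a rho of 0.72 (permutation p = 0.0226, adjusted 0.0678), and r was 0.56 without WT_2 and WT_5 and 0.85 without WT_1 alone. Its r with Mmp8 was 0.50 over all mice and 0.70 without WT_1. With Retnlg it was 0.36 and 0.60, so the distance of Ly6g from these genes rested in part on WT_1.

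**Figure D3:**
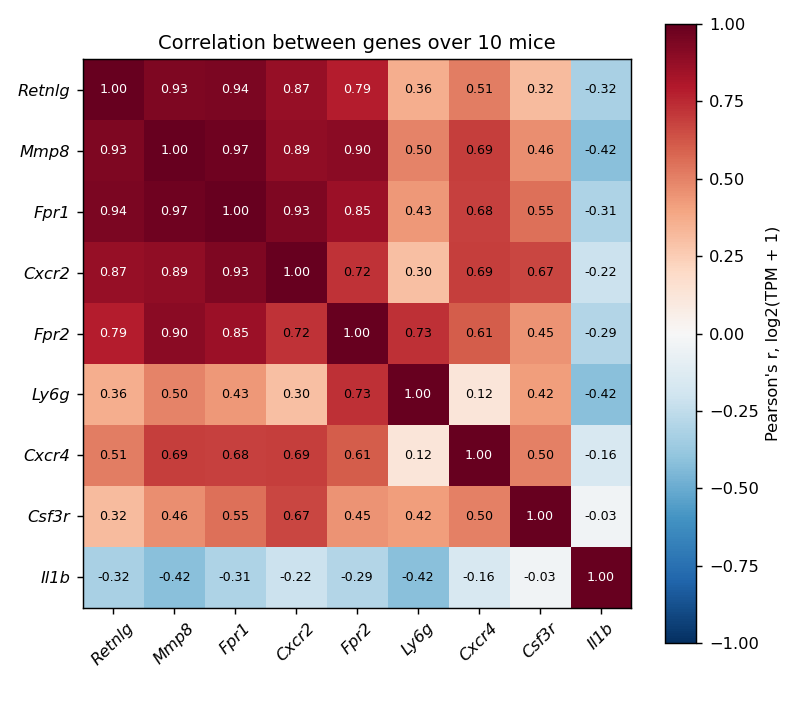
Pearson's r of log2(TPM + 1) over 10 mice for each pair of the 9 genes (colour scale from -1 to 1, value printed in each cell). The block of Retnlg, Mmp8, Fpr1, Cxcr2 and Fpr2 holds values from 0.72 to 0.97, and the row of Il1b holds values from -0.42 to -0.031 with the other 8 genes.

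Promoters are shown for the 4 genes that were most closely related over the mice, as the 250 bases before the RefSeq start in GRCm38.p6. These starts lie within 27 bases of the start of each gene's most abundant transcript. Capitals mark matches on either strand to a C/EBP core (TTGCNNAA), a PU.1 core (GAGGAA) or a TATA box (TATAAA), letters bound by factors of granulocytes or of transcription in general; no match overlaps another in the 4 windows shown. The windows are chr16:48872358-48872607 (plus strand), chr9:7558179-7558428 (plus), chr17:17883940-17884189 (minus) and chr1:74153744-74153993 (plus).
Retnlg: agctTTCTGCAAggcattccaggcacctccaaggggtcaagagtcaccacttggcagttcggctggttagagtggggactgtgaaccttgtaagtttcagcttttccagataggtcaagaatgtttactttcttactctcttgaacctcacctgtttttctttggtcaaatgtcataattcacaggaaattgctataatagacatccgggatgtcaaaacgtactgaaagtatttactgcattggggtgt
Mmp8: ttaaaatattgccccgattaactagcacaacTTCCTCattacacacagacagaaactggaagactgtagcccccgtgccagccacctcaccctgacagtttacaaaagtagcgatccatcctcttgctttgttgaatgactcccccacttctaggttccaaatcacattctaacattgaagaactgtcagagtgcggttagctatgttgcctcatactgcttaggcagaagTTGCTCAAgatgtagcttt
Fpr1: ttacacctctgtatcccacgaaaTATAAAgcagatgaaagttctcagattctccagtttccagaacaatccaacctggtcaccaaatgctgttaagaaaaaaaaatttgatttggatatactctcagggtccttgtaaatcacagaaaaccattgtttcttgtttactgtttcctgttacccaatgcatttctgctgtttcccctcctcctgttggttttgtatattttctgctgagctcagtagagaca
Cxcr2: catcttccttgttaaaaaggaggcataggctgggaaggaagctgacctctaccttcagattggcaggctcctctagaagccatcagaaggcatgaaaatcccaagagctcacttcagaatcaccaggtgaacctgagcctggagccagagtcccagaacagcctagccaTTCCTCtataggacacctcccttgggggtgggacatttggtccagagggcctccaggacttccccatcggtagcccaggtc
The 4 share no motif of the 3: Retnlg and Mmp8 hold the C/EBP core, Mmp8 and Cxcr2 the PU.1 core, and Fpr1 the TATA letters, far from its start at position -227. Over all 9 genes, 3 windows held the C/EBP core, 5 the PU.1 core and 5 the TATA letters, against 9.55%, 23.1% and 12.97% of 27025 promoters of the same length. The Csf3r window ends 2633 bases from the start of its most abundant transcript. For Ly6g 2 promoters were listed, and only the first was searched. Both genes count among those with the PU.1 core. A match is a description of the letters and not a bound site.

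The genes whose values ran most like each member were listed over the 13841 genes tested, by Pearson's r of log2(TPM + 1) over 10 mice, as a description. Retnlg was closest to Sirpb1b (0.97), Klra2 (0.96) and Fpr1 (0.94). Mmp8 was closest to Bmx (0.98), Fpr1 (0.97) and Ceacam10 (0.97), and Fpr1 to Tlr13 (0.98), Hacd4 (0.98) and Mmp8 (0.97). Cxcr2 was closest to Il1f9 (0.96), Pira2 (0.96) and Dhrs9 (0.95), and Fpr2 to Mgst1 (0.97), Mcemp1 (0.95) and Arpc5 (0.95). Csf3r was closest to Cyp4f18 (0.96), Gltp (0.95) and Neurl3 (0.94). Cxcr4 was closest to Cds2 (0.97), Vcpip1 (0.97) and Ep300 (0.96), and its nearest member, Mmp8, ranked 1185 of 13840. Il1b was closest to Sdf2 (0.92), Decr2 (0.91) and Cracr2b (0.90), and its nearest member ranked 9000 of 13840. Ly6g had the weakest neighbours, Lilra5 (0.85), the pseudogene Rps18-ps3 (0.84) and Tjp3 (0.84).

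The spread between mice also differed in size between the genotypes. The SD of log2(TPM + 1) was larger in WT than in null mice for 8 of the 9 genes, all but Il1b, against 52.7% of all genes tested. The median SD of the 9 was 0.59 in WT and 0.27 in null mice, against 0.23 and 0.23 over all genes. Without WT_1 the larger SD was in WT for 7 of 9, with a median of 0.52, and the share of all genes was then 40.8%. Since 5 of these genes run together, they are not separate observations, and the difference in spread was not tested.

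Ratios within a library do not move with the share that other transcripts take of it, and 4 were compared between genotypes with two-sided exact permutation tests, adjusted over the 4. Cxcr2 relative to Cxcr4, the pair of egress and retention receptors, was 0.317, 0.607, 0.382, 0.319 and 0.4495 in WT_1 to WT_5 and 0.412, 0.469, 0.449, 0.417 and 0.657 in KO_1 to KO_5 (ratio of TPM). On the log2 scale 5 of 5 null mice exceeded the mean of WT, but WT_2 was above 4 of them. The log2 ratio averaged -1.30 ± 0.38 in WT and -1.07 ± 0.27 in null mice (SD, n = 5). Its difference of 0.23 was within the spread (exact permutation p = 0.302, adjusted 0.529). It was 0.11 without KO_5 and 0.37 without WT_2.

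Mmp8 relative to Elane sets a late granule gene against neutrophil elastase, a primary granule gene of precursors. It was 0.148, 0.737, 0.2905, 0.192 and 0.468 in WT_1 to WT_5 and 0.287, 0.29998, 0.251, 0.3504 and 0.669 in KO_1 to KO_5. WT_2 and KO_5 had the highest ratios and also the lowest Elane levels, at 447 and 416 TPM. The log2 ratio differed by 0.17 between genotypes (exact permutation p = 0.746, adjusted 0.746), and the difference was below 0 without WT_1 (-0.099), without WT_4 (-0.0074) or without KO_5 (-0.071).

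Retnlg relative to the alarmin gene S100a8, which is expressed from the secondary granule stage onward, was 0.0459, 0.0653, 0.06696, 0.0504 and 0.0606 in WT_1 to WT_5. In KO_1 to KO_5 it was 0.0424, 0.0637, 0.0691, 0.0683 and 0.108. The lowest and the highest value were both in null mice. The log2 difference was 0.23 (exact permutation p = 0.397, adjusted 0.529), and it was 0.063 without KO_5 and 0.40 without KO_1.

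Csf3r relative to Csf1r sets the receptor for the granulocyte factor against that for the macrophage factor. It was 1.22, 1.45, 1.26, 1.07 and 2.12 in WT_1 to WT_5 and 1.89, 2.12, 1.73, 1.92 and 1.97 in KO_1 to KO_5. The null mice lay above 4 of the 5 wild-type mice, and WT_5 lay among them. The log2 ratio averaged 0.46 ± 0.38 in WT and 0.93 ± 0.11 in null mice (SD, n = 5), and 5 of 5 null mice exceeded the mean of WT. The difference of 0.47 did not pass adjustment (exact permutation p = 0.0397, adjusted 0.159). Without WT_5 the difference was 0.62 (exact permutation p = 0.00794, adjusted 0.032); over the alternatives run the adjusted p lay between 0.032 and 0.50. Csf1r itself averaged 83.4 ± 18.6 TPM in WT and 69.9 ± 15.3 TPM in null mice (SD, n = 5, log2 change -0.25, limma adjusted p = 0.632). Csf1r is also carried by osteoclast precursors, and the osteoclast markers summed to 1435 to 3243 TPM in WT and 942 to 1933 TPM in null libraries; their part in this ratio was not tested.

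**Figure D4:**
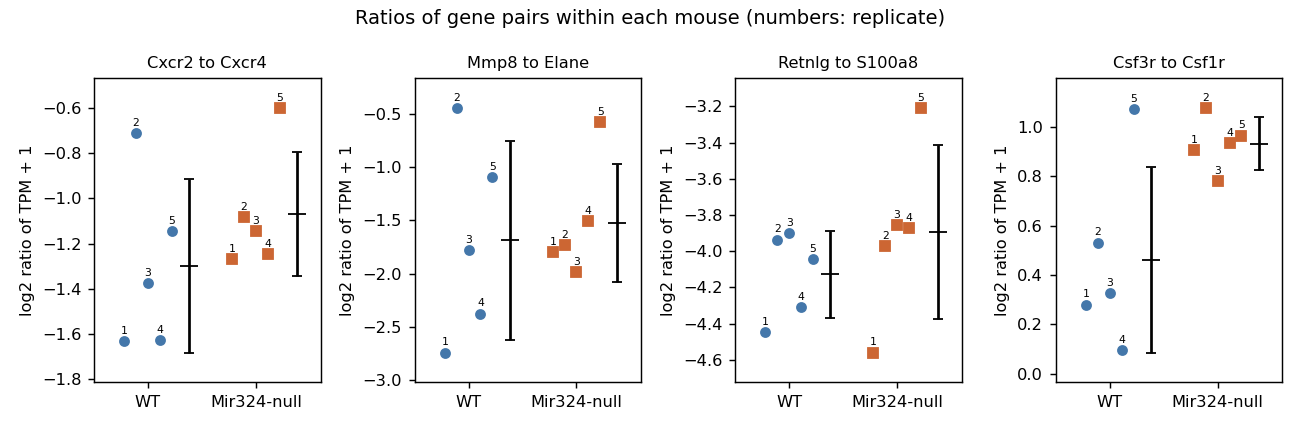
Log2 ratio of TPM + 1 (vertical axes, not starting at 0) of 4 gene pairs within each of 5 WT (circles) and 5 Mir324-null mice (squares); digits give the replicate, and bars the mean ± SD. The genotypes overlap in all 4 panels, and in the panel of Csf3r to Csf1r the null mice lie between 0.78 and 1.08, above every WT mouse but WT_5.

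The 9 genes were also set beside 10 others over the mice: the precursor and granule genes Elane, Mpo, Ltf and Ngp, the alarmin gene S100a8, and Csf1r, Hba-a1, Cxcl12, Cd79a and Anxa1. Of these 90 relations 0 passed adjustment. Fpr2 came closest, with S100a8 (r 0.90, permutation p = 0.00105, adjusted 0.0567, rho 0.88 with permutation p = 0.00164, r 0.84 without WT_2 and WT_5) and with Anxa1 (r 0.88, permutation p = 0.00126, adjusted 0.0567, rho 0.83 with permutation p = 0.00450, r 0.85 without WT_2 and WT_5). Retnlg had an r of 0.59 with S100a8 (permutation p = 0.0676) and -0.40 with Elane (permutation p = 0.241), with rho values of 0.72 (permutation p = 0.0237) and -0.067 (permutation p = 0.866). Il1b had its highest r of the 10 with Csf1r, at 0.60 (permutation p = 0.0606, adjusted 0.303, rho 0.67 with permutation p = 0.0397). With S100a8, Ltf and Ngp the r of Il1b was -0.14, -0.18 and -0.16. As lists, 0 of 5 precursor genes and 0 of 9 genes of the secondary granule list had an unadjusted limma p under 0.05. Their median log2 changes were -0.037 and -0.071, which were 0.053 and 0.019 after rescaling without haemoglobin genes.

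Ligands and signalling partners of the 9 genes were examined in 11 lists of 102 genes, 87 of which entered the fit. In limma, 0 of the 87 passed an adjusted p of 0.05, and at an unadjusted p under 0.05 1 gene was higher in null mice, against 4.28% of all genes, and 2 were lower, against 7.3%. The 3 make up 3.45% of the 87, against 11.6% of all genes. Among the ligands of CXCR2 and CXCR4, Cxcl12 averaged 765 ± 121 TPM in WT and 700.5 ± 107 TPM in null mice (SD, n = 5, log2 change -0.13, limma adjusted p = 0.799). Cxcl2 stayed below the filter, with means of 0.18 TPM in WT and 0.26 TPM in null mice. Ppbp, a platelet chemokine that binds CXCR2, was the gene with the unadjusted p under 0.05 on the higher side, at 715 ± 139 and 992 ± 247 TPM (SD, n = 5, log2 change 0.46, SE 0.20, limma p = 0.0398, adjusted 0.412, exact permutation p = 0.0873), with 4 of 5 null mice over the mean of WT. The unadjusted limma p of Ppbp was not under 0.05 after median ratio scaling, nor without KO_1, KO_2, KO_4, KO_5 or WT_1. The 5 megakaryocyte and platelet markers were all higher at an unadjusted p under 0.05, but 0 of 5 without KO_1 or without KO_5, and 1 of 5 without WT_1. Their sums were 622 to 866 TPM in WT and 646 to 1354 TPM in null libraries, and their part in the Ppbp value was not tested.

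Csf3, which encodes G-CSF, was listed at 0 in all 10 libraries, and 0 of 11 genes downstream of its receptor had an unadjusted limma p under 0.05. Anxa1, whose protein is a ligand of FPR2, averaged 878 ± 238 and 861 ± 302 TPM (SD, n = 5, log2 change -0.051, limma adjusted p = 0.969). Saa3, an acute phase gene whose family includes FPR2 ligands, lay under the mean of WT in 5 of 5 null mice, at 1.95 ± 0.54 and 0.93 ± 0.35 TPM (SD, n = 5, log2 change -0.61, SE 0.19, limma p = 0.00810, adjusted 0.319, exact permutation p = 0.0159). Its values overlapped, with WT_3 at 1.19 TPM and KO_1 at 1.25 TPM. Il1rn, the antagonist of interleukin-1, was at 29.1 ± 12.1 and 31.2 ± 1.68 TPM (SD, n = 5, log2 change 0.20, limma adjusted p = 0.831), and 0 of the 11 genes of the interleukin-1 system had an unadjusted limma p under 0.05.

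The protease gene Mmp9, shared by neutrophils and osteoclasts, lay under the mean of WT in 5 of 5 null mice, at 729 ± 174 and 556 ± 91.2 TPM (SD, n = 5, log2 change -0.38, SE 0.16, limma p = 0.0367, adjusted 0.399, exact permutation p = 0.0794). Its unadjusted limma p was not under 0.05 after rescaling without haemoglobin genes, nor without WT_1, WT_2, KO_4 or KO_5. All 6 osteoclast markers tested, Mmp9 among them, were lower at an unadjusted limma p under 0.05 in the main fit. The count was 5 of 6 after rescaling without haemoglobin genes, and 4 to 6 with 1 mouse left out. The part of osteoclasts in the Mmp9 value was not tested. The granulocyte factor Cebpe (log2 change -0.028, limma adjusted p = 0.982), Ly6c2 (0.057, 0.963) and Retn (-0.47, 0.613) did not pass. The lists of adhesion genes, transcription factors, G protein signalling, other chemoattractant receptors and Ly6 relatives held 0 genes with an unadjusted limma p under 0.05, of 16, 10, 11, 7 and 8 tested, and of the resistin-like list only Retn reached the filter, 1 of 3.

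Markers of other cells that such a dissection can hold were counted in the same way at an unadjusted limma p under 0.05. Over the 13 lists 0 markers passed adjustment, and 4.28% of all genes stood higher and 7.3% lower at the unadjusted p. In null mice 4 of 7 erythroid markers were higher, and 1 of 8 markers of eosinophils, basophils and mast cells. Lower in null mice were 4 of 9 B lineage, 2 of 5 endothelial, 2 of 5 marrow stromal, 4 of 7 chondrocyte and 8 of 9 osteoblast and osteocyte markers. After rescaling without haemoglobin genes the lower counts were 0 of 9, 2 of 5, 1 of 5, 3 of 7 and 6 of 9, and 3 of the 3 erythroid markers left were higher. With 1 mouse left out the lower counts ran from 1 to 7 for B lineage, 1 to 2 for endothelial and 1 to 4 for marrow stromal markers. They ran from 1 to 5 for chondrocyte and 4 to 9 for osteoblast and osteocyte markers, and 1 to 6 erythroid markers were higher. Of monocyte and macrophage markers 0 of 9 stood at that p, with sums of 751 to 1088 TPM in WT and 778 to 911 TPM in null libraries, and of T and NK cell markers 0 of 9. The part of these cells in the levels of the 9 genes was not tested.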

How the data were processed

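The authors deposited kallisto TPM per versioned Ensembl mouse transcript, 1 column per mouse; each column summed to 1000000. The submitters' processing notes name kallisto, DESeq2 and GRCh38, a human build, while every identifier is of mouse; versions and index were not given in the sources used here. Transcripts were matched without version to GENCODE M21 (GRCm38), 115440 of 116912; the rest held 0.275% to 0.356% of the TPM. TPM was summed per gene; 13841 genes whose average over the libraries reached 1 TPM were tested on log2(TPM + 1), a scale that understates changes of low genes, with limma 3.58.1 in R 4.3.3 (trend, two-sided, Benjamini-Hochberg over all genes tested, threshold 0.05). Ratios and single genes were tested with exact permutation over mice, and correlations with 100000 permutations (Python 3.11.15, scipy 1.17.1). Fits were tested on simulated data. The members, lists and tests were chosen with earlier results of these data known. The text names all 9 members, ratio partners, a fixed set of pathway genes (1 of them is not reported here), pathway genes with an unadjusted p under 0.05, and the 3 genes most like each member. Marker lists numbered 13. Alternatives were other pseudocounts, scalings, filters, transcript sets and limma settings, the replicate number as a block, and each mouse left out. Replicate numbers were not taken as pairs.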

Additional observations from a re-analysis of the deposited data

Results flagged for a closer look

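In 26 groups of 5 values (9 genes and 4 ratios in each genotype), the gap of the most extreme mouse to its neighbour was compared with the range of the group by Dixon's criterion at 95% (critical value 0.710), which chance alone passes in about 1 in 20 groups. It was passed by Il1b in KO_4, the lowest of the null mice at 22.2 TPM, where the gap made up 0.71 of the range on log2(TPM + 1), the critical value itself to that precision. It was also passed by the log2 ratio of Cxcr2 to Cxcr4 in KO_5, the highest of the null mice at -0.60, where the gap made up 0.725 of the range. The log2 change of Il1b was -0.077 without KO_4.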

How the results depend on the processing

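The count of the 9 genes with an unadjusted limma p under 0.05 was 0 in every setting run, including other pseudocounts, scalings, filters, protein-coding transcripts only and each mouse left out. Leaving out 1 mouse moved the log2 change of Retnlg to between -0.12 and 0.25, of Mmp8 to between -0.073 and 0.37, of Fpr1 to between -0.12 and 0.33, of Fpr2 to between -0.22 and 0.10 and of Ly6g to between -0.32 and 0.12. It moved the log2 ratio of Mmp8 to Elane to between -0.099 and 0.48 and that of Csf3r to Csf1r to between 0.38 and 0.62. Rescaling without haemoglobin genes gave 0.034 for Fpr2, against -0.056, and moved Retnlg to 0.19, Cxcr4 to 0.19, Mmp8 to 0.24, Fpr1 to 0.21, Il1b to -0.10 and Ly6g to -0.036. Quantile normalization moved Retnlg to 0.24, the log2 ratio of Retnlg to S100a8 to 0.43 and that of Mmp8 to Elane to 0.067. With protein-coding transcripts alone Il1b changed by -0.31. The number of genes with an adjusted p under 0.05 over the transcriptome lay between 0 and 1, the 1 being Gm37419 without WT_3, Igkv2-109 without WT_4 and Rpl30-ps9 without KO_1, and the number with an unadjusted p under 0.05 between 1106 and 1927 with 1 mouse left out; it was 2062 without a filter on low values. The share of lower genes among the 1603 at that p with all mice and the filter was 63.1%, and 50.4% after median ratio scaling, 51.2% after quantile normalization and 32.3% after rescaling without haemoglobin. The larger SD in WT held for 7 to 9 of the 9 genes without 1 mouse, an alternative chosen after seeing the data, as were the marker list counts under other scalings and without 1 mouse. With the replicate number as a block, 1168 genes had an unadjusted p under 0.05 and 0 of the 9, and the exact sign-flip p of the 4 ratios lay between 0.125 and 0.75. Same-numbered mice correlated between -0.14 and 0.056, and no mouse was closest to the one of its own number. These correlations cannot exclude a shared litter or batch, and the labels do not say whether the numbers pair mice. TPM holds no depth, so counting error is unknown.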
